A study of Mus musculus with 30 samples.

Results

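The genes described here were 32 genes known for rod and cone photoreceptors and for bipolar cells, read in RNA of sorted mouse retinal ganglion cells. They were chosen by symbol, with earlier results of these data known, and all 32 were found among the 24033 gene symbols used. A further entry of the rule, Isl2-none, is no gene symbol and matched no row. By role they were 9 genes of rod phototransduction, 4 shared by rods and cones, 3 photoreceptor transcription factors, 9 cone genes, 6 bipolar genes and Otx2, a transcription factor of both photoreceptors and bipolar cells. All 32 had enough counts to be tested.

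All libraries came from mice carrying both LSL-Cas9-GFP and Vglut2-Cre, so that Cas9 and GFP are made where the Vglut2 promoter is or was active, which includes ganglion cells. Each received an intravitreal AAV2 with sgRNAs, targeting Ssrp1 in the SSRP1KO groups and non-targeting in the NT groups, and optic nerves of the crushed groups were crushed 2 weeks afterwards. SSRP1KO and NT were each sampled with no crush and 1, 2, 3 and 4 days after it (1dpc to 4dpc), giving 10 groups of 3 libraries, 30 in all. Live cells were sorted by CD90.2, GFP or mCherry, which marks the sgRNA vector, singly or in combination, and which gate served which library is not given. No age is given, and nothing in the labels ties replicates to separate mice, so p-values measure only the spread between these libraries.

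In rods, light-activated opsin switches on the G protein transducin (Gnat1, Gnb1, Gngt1), which activates a phosphodiesterase (Pde6a, Pde6b, Pde6g) that breaks down cGMP and so closes cGMP-gated channels (Cnga1, Cngb1). Cones use the same cascade with their own subunits (Gnat2, Gngt2, Pde6c, Pde6h, Cnga3, Cngb3) and their own opsins. Photoreceptors signal to bipolar cells, which pass the signal on to ganglion cells. In ON bipolar cells the glutamate receptor Grm6 controls the cation channel Trpm1. In bulk libraries, a change in the number of cells of a type and a change in RNA per cell cannot be told apart.

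Promoter sequences are shown for 5 of the genes, because Crx and Otx2, which are among the members, are known to bind the letters TAATCC. They cover rod, cone and bipolar genes and Gnb1, which many cell types make. Each line gives the 250 bases before the RefSeq transcript start, 5′ to 3′ on the gene's strand, build GRCm38.p6, with TAATCC or its reverse complement GGATTA in capitals.
Sag, chr1:87803430-87803679, plus strand: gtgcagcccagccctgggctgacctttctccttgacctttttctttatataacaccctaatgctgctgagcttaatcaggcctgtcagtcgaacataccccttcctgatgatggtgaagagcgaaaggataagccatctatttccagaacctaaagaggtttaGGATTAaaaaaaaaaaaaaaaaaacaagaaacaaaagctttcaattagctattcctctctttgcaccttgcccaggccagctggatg
Cngb1, chr8:95306586-95306835, minus strand: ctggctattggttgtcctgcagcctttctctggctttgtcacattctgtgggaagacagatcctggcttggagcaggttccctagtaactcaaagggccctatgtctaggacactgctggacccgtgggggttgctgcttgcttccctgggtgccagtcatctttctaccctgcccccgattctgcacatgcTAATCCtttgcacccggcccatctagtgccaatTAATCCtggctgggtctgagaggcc
Arr3, chrX:100605247-100605496, plus strand: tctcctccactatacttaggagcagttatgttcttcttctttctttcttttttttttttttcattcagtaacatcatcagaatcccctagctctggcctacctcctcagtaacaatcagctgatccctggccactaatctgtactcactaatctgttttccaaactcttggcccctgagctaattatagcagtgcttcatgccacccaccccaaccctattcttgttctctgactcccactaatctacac
Trpm1, chr7:64153585-64153834, plus strand: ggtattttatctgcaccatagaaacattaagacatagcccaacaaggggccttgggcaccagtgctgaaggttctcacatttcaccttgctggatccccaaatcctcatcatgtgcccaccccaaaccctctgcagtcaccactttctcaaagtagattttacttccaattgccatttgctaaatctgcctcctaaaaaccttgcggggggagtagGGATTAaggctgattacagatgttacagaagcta
Gnb1, chr4:155491111-155491360, plus strand: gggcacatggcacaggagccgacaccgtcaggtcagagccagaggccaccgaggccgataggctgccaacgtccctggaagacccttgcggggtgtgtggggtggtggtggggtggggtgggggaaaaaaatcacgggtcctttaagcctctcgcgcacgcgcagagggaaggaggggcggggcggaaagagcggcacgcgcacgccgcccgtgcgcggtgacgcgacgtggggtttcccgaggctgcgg
Sag, which encodes rod arrestin, had a match at position -87 from the start, and Cngb1, a subunit of the rod cGMP-gated channel, had matches at -58 and -25. Trpm1, the ON bipolar channel, had a match at -34, and a second RefSeq window of this gene, at chr7:64185209-64185458, had none. Arr3, which encodes cone arrestin, and Gnb1, a transducin subunit that many cell types make, had none in this window. RefSeq gave a promoter for 24 of the 32 genes, with 33 windows in all. TAATCC on either strand stood in 9 of the 33 windows (27.3%), against 6.25% of all 32851 windows of the same length. The letters TGCTGA, on either strand, stood in 15.2% of the members' windows and 16.1% of all windows. The letters of these 2 motifs cannot overlap, and a match describes letters, not binding.

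Library totals ran from 9715972 to 34420978 counts, and 15281 to 18504 genes were detected per library. Levels are given in CPM, each gene's counts scaled to a common library size of 1e+06. Ssrp1 itself stood at 26.9 to 66.9 CPM in the SSRP1KO libraries, against 36 to 102 CPM in the NT libraries, so the ranges over all times overlapped. Within a time, all SSRP1KO values lay below all NT values at 1dpc (26.9 to 30.1 against 63 to 80.3 CPM). The same held at 3dpc (37.8 to 40.4 against 80.5 to 102 CPM) and 4dpc (41.7 to 48 against 50.6 to 97.8 CPM). Without crush and at 2dpc the values overlapped. Of 10 ganglion cell markers, Thy1, Nefl, Nefm and Slc17a6 had medians of 1147 to 1619 CPM over the 29 libraries other than SSRP1KO 3dpc replicate 2, while Pou4f3 and Isl2 had medians of 6.91 and 7.14 CPM. The 10 summed to 4299 to 10487 CPM over the 30 libraries.

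The library labelled SSRP1KO 3dpc replicate 2 stood apart from the rest. It had the highest CPM of the 30 libraries for 31 of the 32 genes, while it was the highest for 800 of the 16621 genes tested (4.81%). The exception was Gnb1, for which it ranked 10. Against the mean of replicates 1 and 3 of its group, its level was 4.23 to 8.29 times as high for the 8 rod genes without Gnb1 (median 6.94). The ratio was 3.86 to 7.55 for the genes shared by rods and cones, 3.76 to 6.15 for the 3 photoreceptor transcription factors and 4.34 to 16.8 for 5 bipolar genes without Prkca. For the 9 cone genes the median ratio was 13.9, and the lowest was 4.44. The median ratio over all genes with a ratio was 0.981. Member calls by edgeR that rest on this library are given with and without it.

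In the same library, none of the 10 ganglion cell markers was at its highest of 30, and their sum was 4900 CPM, against 5202 and 6030 CPM in the other SSRP1KO 3dpc libraries. Thy1, the gene of the CD90 antigen used in the sort, was at 817 CPM there, the lowest of the 30 libraries. Of 8 Müller glia markers 5 were at their highest of 30 (Rlbp1, Glul, Slc1a3, Sox9 and Aqp4). The 8 summed to 920 CPM, against 358 and 629 CPM in replicates 1 and 3. In the 29 libraries other than replicate 2 this sum ran from 334 to 1571 CPM, the highest in SSRP1KO no crush. Of 4 endothelium markers 3 were at their highest, with a sum of 26.5 CPM against 3.66 and 6.53 CPM. Of 9 amacrine, 9 microglia and 2 horizontal cell markers, none was at its highest there, and of 3 astrocyte markers 1 was (Gfap). The part of other cells in the levels of this library was not tested.

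**Figure D1:**
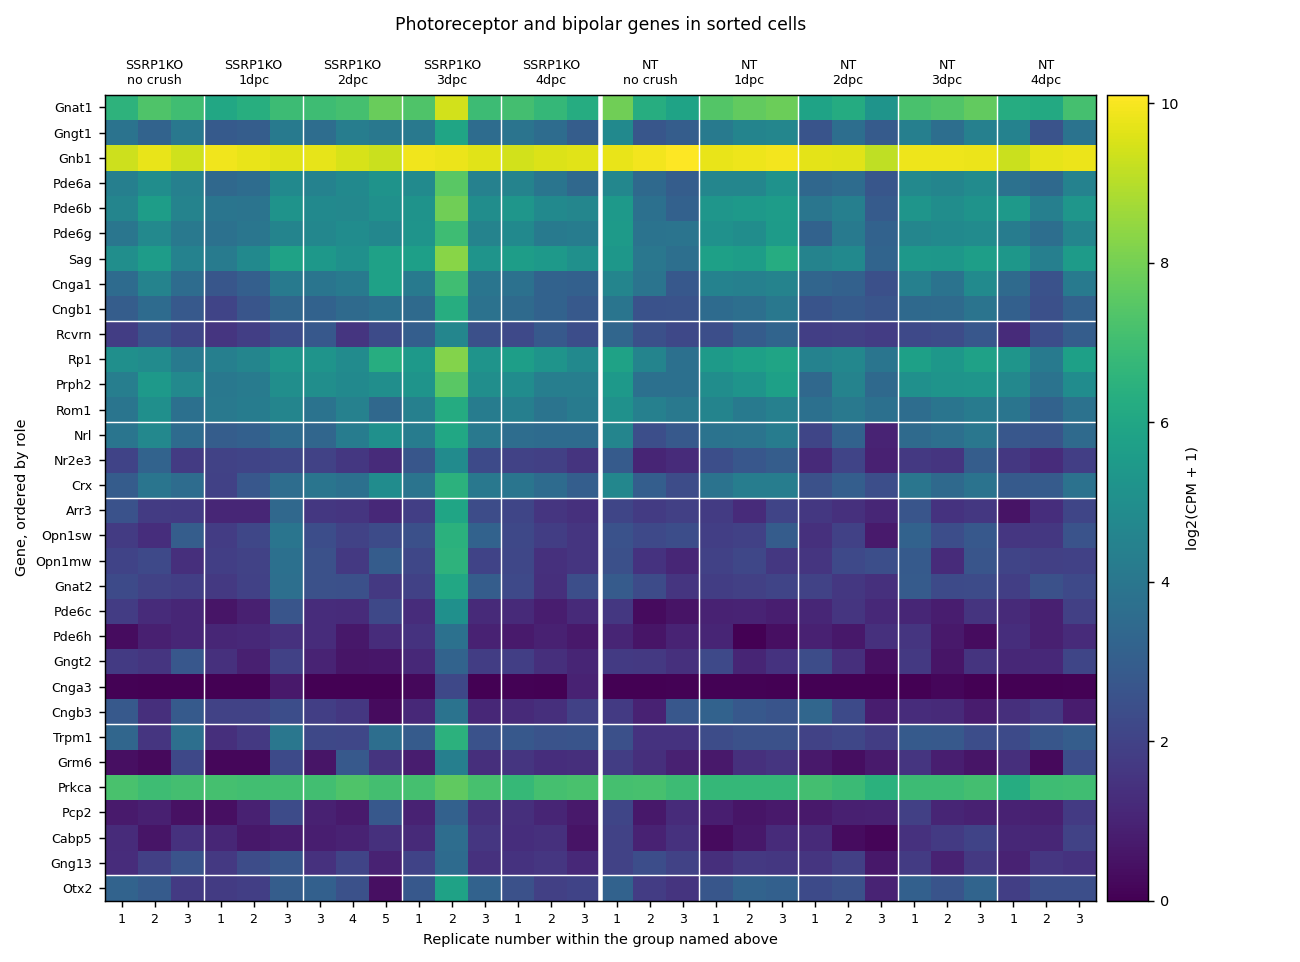
Level of each of the 32 genes (rows, by role) in each of the 30 libraries (columns, SSRP1KO left of NT and times in order), as log2(CPM + 1). SSRP1KO 3dpc replicate 2 is brighter than the other columns in 31 rows, and Gnb1 and Prkca are bright in every column.

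Among the rod genes other than Gnb1, Gnat1, the rod transducin alpha subunit, was the most abundant by its median over the 29 libraries besides SSRP1KO 3dpc replicate 2 (123 CPM). The gene lies on the minus strand of chromosome 9, from 107674474 to 107679712 (GRCm38, GENCODE M21), in 9 exon blocks. In SSRP1KO libraries it stood at 91.9, 157 and 129 CPM without crush, 65.8, 80.3 and 121 at 1dpc, 123, 138 and 221 at 2dpc, 157, 684 and 122 at 3dpc, and 134, 106 and 75.3 at 4dpc. In NT libraries it stood at 243, 76.5 and 57.1 CPM without crush, 170, 201 and 229 at 1dpc, 56.7, 73.9 and 36.4 at 2dpc, 145, 161 and 203 at 3dpc, and 75.5, 69.1 and 140 at 4dpc. At 1dpc the SSRP1KO values lay below all NT values, and at 2dpc they lay above all of them. Neither difference passed (log2 difference -1.17 ± 0.48, adjusted p = 0.897 at 1dpc, and 1.52 ± 0.49, adjusted p = 0.115 at 2dpc, edgeR's quasi-likelihood test with Benjamini-Hochberg adjustment over all genes, as in all adjusted p-values below). Per kilobase of exon, the median over the other 29 libraries was 40.5 CPM for Gnat1, 9.84 CPM for Pde6g and 0.872 CPM for Cngb1, a long transcript.

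Sag, which ends the light response by binding opsin, lies on the plus strand of chromosome 1, from 87803680 to 87845158. In SSRP1KO libraries it stood at 30.5, 47.3 and 21 CPM without crush, 17.6, 26.8 and 56 at 1dpc, 40.4, 32.2 and 53.5 at 2dpc, 50.5, 313 and 36.7 at 3dpc, and 47.9, 42 and 32.4 at 4dpc. In NT libraries it stood at 40.2, 14.9 and 11.8 CPM without crush, 53, 48.7 and 75.1 at 1dpc, 22, 26.4 and 8.54 at 2dpc, 40.7, 39.9 and 50.2 at 3dpc, and 39.7, 19.8 and 45.1 at 4dpc. As for Gnat1, the SSRP1KO values at 2dpc lay above all NT values, without a call by edgeR. At SSRP1KO 3dpc, 1 library lay far above the other 29. Pde6a and Pde6b, the catalytic subunits of rod phosphodiesterase, reached 183 and 237 CPM there, against highest values of 35.9 and 48.5 CPM elsewhere. Cnga1, the other rod channel subunit, reached 127 CPM there. Its next highest library was SSRP1KO 2dpc replicate 5, at 54.5 CPM, which was also the next highest for Pde6a, Rp1, Nrl and Crx. Gngt1, the gamma subunit of rod transducin, reached 61 CPM, against 5.06 to 26.8 CPM elsewhere. Pde6g, the inhibitory subunit of rod phosphodiesterase, stood at 36.6, 124 and 22 CPM at SSRP1KO 3dpc, against 14.6, 26.2 and 15.8 CPM in SSRP1KO no crush. Cngb1 stood at 10.4, 78.1 and 12.9 CPM at SSRP1KO 3dpc, against 6.98, 10.7 and 6.11 CPM in SSRP1KO no crush. For both genes replicate 2 lay far above all SSRP1KO no crush libraries, and 1 of the other 2 SSRP1KO 3dpc libraries overlapped them.

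Summed over the 8 rod genes, the level was 1806 CPM in SSRP1KO 3dpc replicate 2, or 0.198% of that library's counts (Wilson 95% interval 0.196 to 0.2%, counting error only). The other 29 libraries lay between 81.3 and 492 CPM. In SSRP1KO libraries the sum was 211, 350 and 240 CPM without crush, 135, 166 and 305 at 1dpc, 269, 296 and 450 at 2dpc, 349, 1806 and 270 at 3dpc, and 306, 233 and 179 at 4dpc. In NT libraries it was 459, 151 and 115 CPM without crush, 368, 402 and 492 at 1dpc, 130, 173 and 81.3 at 2dpc, 322, 316 and 406 at 3dpc, and 227, 144 and 306 at 4dpc. Within NT, all 3 libraries of 2dpc lay below all of 1dpc and 3dpc, while the no crush libraries spanned most of the range.

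**Figure D2:**
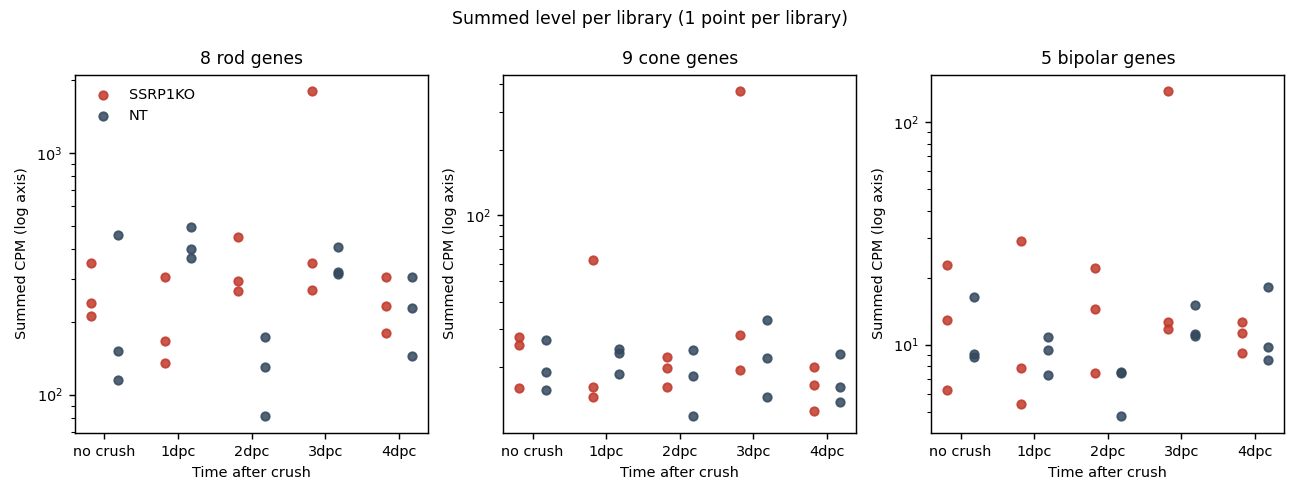
Summed CPM (log axis) of 8 rod, 9 cone and 5 bipolar genes in each library, by time, with SSRP1KO left of NT. In all 3 panels the highest point is SSRP1KO 3dpc replicate 2 (1806, 374 and 138 CPM), and the cone and bipolar panels have SSRP1KO 1dpc replicate 3 next (62.5 and 29.2 CPM).

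Gnb1 did not share this profile. It encodes the beta subunit of rod transducin, which other neurons use as well, and stood at 569 to 1098 CPM in the other 29 libraries and at 900 CPM in SSRP1KO 3dpc replicate 2. The highest library was 1.93 times the lowest, against 4.86 times for Cngb1 and 12 times for Cnga1.

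Of the genes that rods and cones share, Rp1, a microtubule protein of the outer segment axoneme, and Prph2, a disc rim protein, were the most abundant. Rp1 stood at 42.3, 299 and 37 CPM at SSRP1KO 3dpc, against 31.8, 28.7 and 16.8 CPM in SSRP1KO no crush, so these groups did not overlap. Prph2 stood at 36.3, 184 and 30.6 CPM, against 19.2, 42.6 and 25.7 CPM, and these groups overlapped. Rom1, the partner of Prph2 in the disc rim, stood at 74.1 CPM in SSRP1KO 3dpc replicate 2, and at 20.4 and 18 CPM in replicates 1 and 3. Rcvrn, a calcium sensor of photoreceptors, stood at 24.2 CPM in replicate 2, and at 7.12 and 4.56 CPM in the other pair. Rcvrn overlaps Glp2r on the opposite strand and the strand setting of the counts is not given, so reads of that pair cannot be told apart. The same holds for Opn1sw and Calu, Pde6h and Arhgdib, Gngt2 and Abi3, Pcp2 and Pet100, and Gng13 and Chtf18.

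Of the photoreceptor transcription factors, Crx drives photoreceptor genes. It stood at 13.7, 89.1 and 15.7 CPM at SSRP1KO 3dpc, against 6.77, 14.4 and 10.8 CPM in SSRP1KO no crush, and at 2.91 to 29.4 CPM in all 29 libraries other than SSRP1KO 3dpc replicate 2. Nr2e3, a rod factor that represses cone genes, stood at 0.887 to 8.18 CPM, and at 28.4 CPM there. Nrl, which sets rod fate, stood at 14.1, 25.5 and 10.5 CPM without crush in SSRP1KO libraries, 6.99, 7.56 and 10.6 at 1dpc, 9.14, 18 and 32.9 at 2dpc, 18.1, 64 and 15.9 at 3dpc, and 11.3, 10.5 and 10.6 at 4dpc. In NT libraries Nrl stood at 23.4, 4.45 and 6.13 CPM without crush, 13.2, 13.7 and 18 at 1dpc, 3.36, 7.94 and 0.998 at 2dpc, 10.2, 11.8 and 14.9 at 3dpc, and 5.67, 5.34 and 10.2 at 4dpc. At 2dpc every SSRP1KO value of Nrl was above every NT value (log2 difference 2.22 ± 0.60, adjusted p = 0.0817), which did not pass.

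Cone genes stood at a few CPM in most libraries. Opn1mw, the medium-wavelength cone opsin, stood at 3.07, 3.69 and 1.56 CPM without crush in SSRP1KO libraries, 2.63, 2.95 and 12.4 at 1dpc, 4.74, 2.24 and 6.73 at 2dpc, 3.49, 91.4 and 3.06 at 3dpc, and 3.5, 1.67 and 1.92 at 4dpc. In NT libraries it stood at 4.5, 1.82 and 1.1 CPM without crush, 2.89, 3.46 and 2.1 at 1dpc, 1.98, 3.68 and 4.44 at 2dpc, 6.27, 1.37 and 5.41 at 3dpc, and 3.21, 2.81 and 2.92 at 4dpc. Outside SSRP1KO 3dpc replicate 2, the highest value was 12.4 CPM, in SSRP1KO 1dpc replicate 3. Opn1mw lies on the plus strand of the X chromosome, from 74127464 to 74150760.

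Opn1sw, Arr3, Gnat2 and Pde6c were highest in the same pair of libraries. Opn1sw, the short-wavelength opsin, reached 86.3 CPM in SSRP1KO 3dpc replicate 2 and 14 CPM in SSRP1KO 1dpc replicate 3. Arr3 reached 61.1 CPM in SSRP1KO 3dpc replicate 2 and 9.63 CPM in SSRP1KO 1dpc replicate 3. Gnat2, the cone transducin alpha subunit, reached 65 and 11.8 CPM in the same libraries, and Pde6c, the cone phosphodiesterase, 32.3 and 5.34 CPM. Leaving these aside, Gnat2 stood at 2.89 and 6.95 CPM in the other SSRP1KO 3dpc libraries, against 3.88, 2.95 and 2.7 CPM in SSRP1KO no crush, so those values overlapped.

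The next highest library was another one for Cngb3, Gngt2 and Pde6h. Cngb3, the partner of Cnga3 in the cone channel, stood at 13.4 CPM in SSRP1KO 3dpc replicate 2, and its next highest libraries were NT 2dpc replicate 1 at 9.08 CPM and NT 1dpc replicate 1 at 8 CPM. At 1dpc its SSRP1KO values of 2.98, 2.95 and 4.17 CPM lay below all NT values of 8, 5.97 and 5.13 CPM. That difference was not called by edgeR. Gngt2, the cone transducin gamma subunit, stood at 8.4 CPM in SSRP1KO 3dpc replicate 2 and next at 5.75 CPM in SSRP1KO no crush replicate 3. Pde6h, the inhibitory subunit of cone phosphodiesterase, was at 12.5 CPM in SSRP1KO 3dpc replicate 2 and at or below 1.98 CPM elsewhere. Cnga3, the cone channel subunit, had no count in 19 libraries, and 3 counts would be 0.0839 to 0.333 CPM over the 30 libraries. It had 84 counts (3.62 CPM) in SSRP1KO 3dpc replicate 2, against 5 and 0 counts in replicates 1 and 3. The cone sum was 374 CPM in SSRP1KO 3dpc replicate 2, against 11.9 to 62.5 CPM in the other 29 libraries. Relative to the rod sum it was 20.7% there, while the other libraries ranged from 4.43 to 20.5% with a median of 8.24%.

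**Figure D3:**
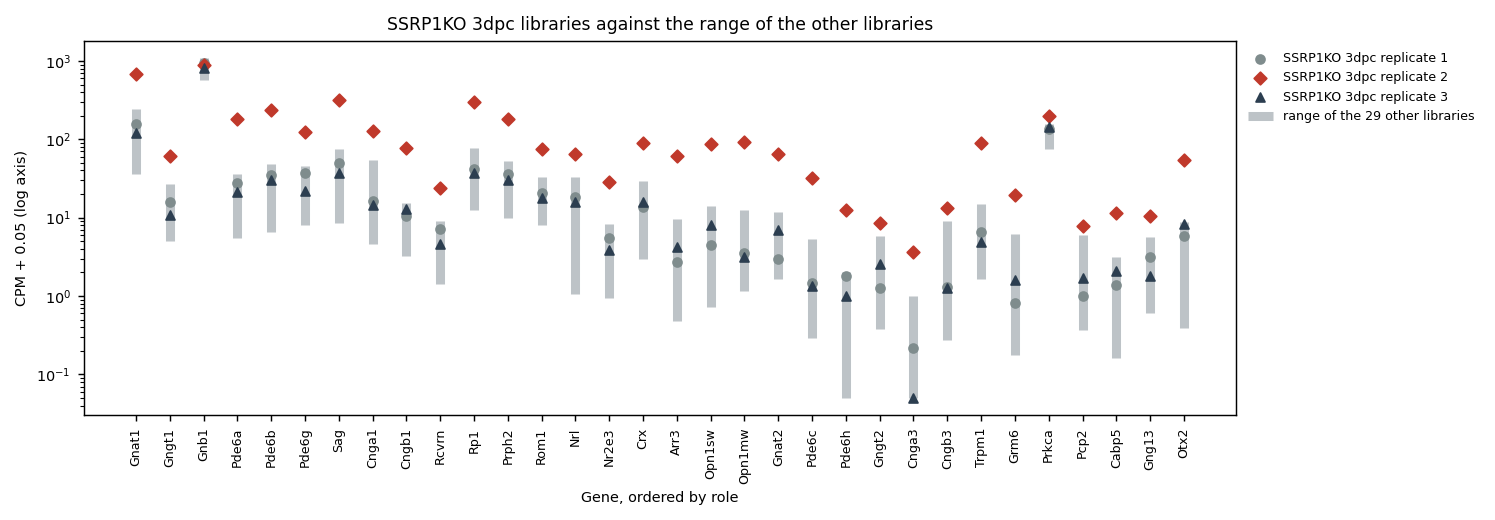
CPM of each gene (log axis, with 0.05 added so that 0 can be drawn) in the 3 SSRP1KO 3dpc libraries, with the range of the 29 libraries other than replicate 2 as grey bars. Replicate 2 lies above the grey bar for every gene but Gnb1, where it lies within it.

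Bipolar genes other than Prkca were also low. Trpm1 stood at 9.03, 1.97 and 12 CPM without crush in SSRP1KO libraries, 1.6, 2.19 and 15.1 at 1dpc, 3.54, 3.44 and 11.7 at 2dpc, 6.52, 88.4 and 4.81 at 3dpc, and 5.82, 5.02 and 5.25 at 4dpc. In NT libraries it stood at 4.5, 1.78 and 1.8 CPM without crush, 4.12, 4.61 and 4.75 at 1dpc, 2.97, 3.4 and 2.55 at 2dpc, 6.27, 6.1 and 4.2 at 3dpc, and 3.85, 5.55 and 6.96 at 4dpc. Its NT values stayed within 1.78 to 6.96 CPM, while 5 SSRP1KO libraries lay above that range. Trpm1 lies on the plus strand of chromosome 7, from 64153835 to 64269775. Grm6 reached 19.6 CPM in SSRP1KO 3dpc replicate 2, against 0.127 to 6.15 CPM elsewhere. Cabp5, a calcium-binding protein, reached 11.3 CPM, against 0.111 to 3.08 CPM, and Gng13, the G protein gamma subunit of ON bipolar cells, reached 10.6 CPM, against 0.555 to 5.6 CPM. Pcp2, a G protein modulator, reached 7.71 CPM, against 0.319 to 5.87 CPM. Otx2 reached 55 CPM, against 0.342 to 8.64 CPM. The bipolar sum was 7.62% of the rod sum in that library and 1.79 to 9.58% in the others.

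Prkca, a protein kinase gene that marks rod bipolar cells and is active in other cells as well, was high throughout. In SSRP1KO libraries it stood at 148, 125 and 133 CPM without crush, 138, 132 and 132 at 1dpc, 131, 157 and 136 at 2dpc, 137, 198 and 144 at 3dpc, and 108, 137 and 146 at 4dpc. In NT libraries it stood at 137, 144 and 119 CPM without crush, 105, 105 and 104 at 1dpc, 133, 116 and 87.2 at 2dpc, 121, 119 and 136 at 3dpc, and 75, 124 and 129 at 4dpc. Every SSRP1KO value was above every NT value at 1dpc and at 3dpc, and the ranges overlapped without crush, at 2dpc and at 4dpc. At 3dpc the lowest SSRP1KO and the highest NT value were 137 and 136 CPM. Neither difference was called by edgeR with all libraries fitted. The gene lies on the minus strand of chromosome 11, from 107933387 to 108343928, and overlaps Apoh and 2 antisense genes on the opposite strand.

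Within groups, 1 library was often the highest for most of these genes. Besides SSRP1KO 3dpc replicate 2, SSRP1KO 1dpc replicate 3 was the highest of its group for 29 of the 30 genes without Gnb1 and Prkca. NT no crush replicate 1 was the highest of its group for 27 of them, SSRP1KO 4dpc replicate 1 for 22, and NT 4dpc replicate 3 for 21. NT 1dpc replicate 3 and NT 2dpc replicate 2 were the highest for 19, and NT 3dpc replicate 3 for 16. In SSRP1KO no crush and SSRP1KO 2dpc no library was the highest for more than 15. Counts over all genes were not made, so these numbers are not shown to be particular to the members.

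The crush comparisons ask whether these genes changed after injury. At 3dpc against no crush in SSRP1KO cells, 14 of the 32 genes were called higher and none lower, while 8.77% of all genes tested were called higher and 14.5% in either direction. They were the rod genes Cnga1, Cngb1, Pde6a, Pde6g and Sag, the shared genes Rcvrn, Rp1 and Prph2, the transcription factor Crx, and the cone genes Arr3, Gnat2, Opn1mw, Opn1sw and Pde6c. Opn1sw had the smallest adjusted p (log2 fold change 3.20 ± 0.80, adjusted p = 0.00593), and Opn1mw (3.55 ± 0.90, 0.00654) and Gnat2 (2.97 ± 0.74, 0.00612) came close to it. Cngb1 rose by 2.09 ± 0.53 (adjusted p = 0.0063) and Rp1 by 2.29 ± 0.59 (0.00748) on the log2 scale. The 6 bipolar genes and Otx2 did not pass (Trpm1 2.11 ± 0.80, adjusted p = 0.0779). The members' median log2 fold change was 1.88, against 0.03 over all genes.

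None of the 14 calls remained without SSRP1KO 3dpc replicate 2. Opn1sw then had a log2 fold change of 0.79 ± 0.65 (adjusted p = 0.481), Cngb1 of 0.56 ± 0.41 (0.425) and Pde6c of -0.26 ± 0.85 (0.89). The members' median was 0.18 and 1 member had an unadjusted p under 0.05, against 4349 of the 17004 genes then tested, of which 2036 were still called. Without replicate 1 or replicate 3 of the same group, 19 and 20 members were called. Without SSRP1KO no crush replicate 1 or replicate 3, 6 were called. Counts over all genes are not given here for the fits without replicate 1 or 3 of either group. When only the 6 libraries of these groups were fitted, none of the 31 members tested was called, against 1191 of 15108 genes. The members' median log2 fold change was then still 1.78.

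**Figure D4:**
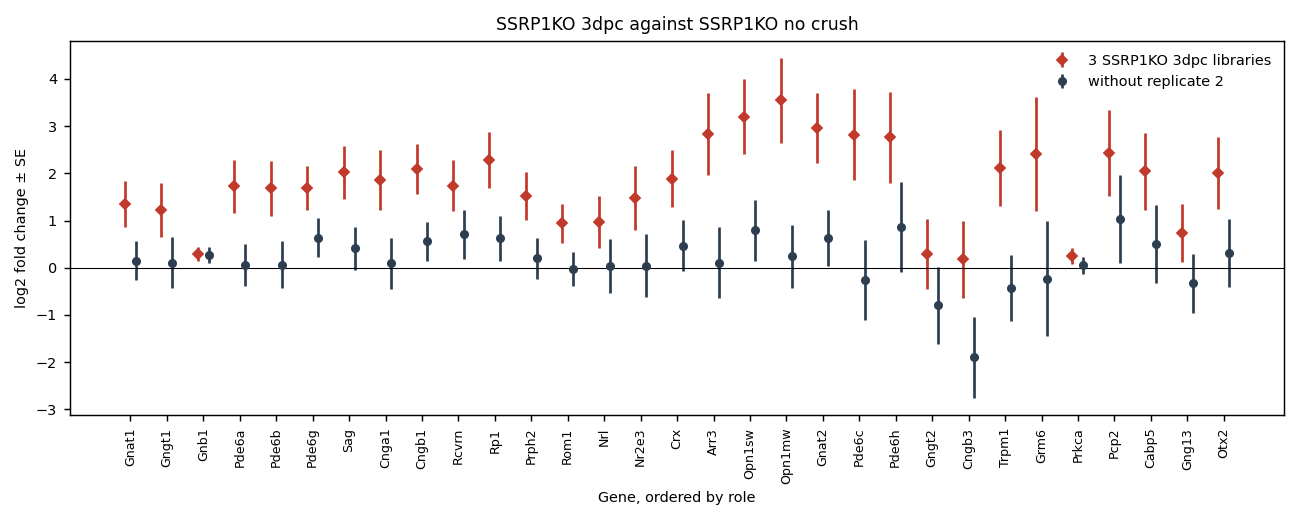
Log2 fold change ± SE of each gene at SSRP1KO 3dpc against SSRP1KO no crush, with all 3 SSRP1KO 3dpc libraries and without replicate 2. Cnga3 is left out because it had 1, 0 and 0 counts in SSRP1KO no crush, so its fitted fold depends on the prior count. Without replicate 2 most genes lie near 0.

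In the other crush comparisons none of the 32 genes was called by edgeR. In SSRP1KO cells 4.04% of all genes were called at 1dpc, 11.7% at 2dpc and 13.1% at 4dpc. In NT cells 1.86% were called at 1dpc, 18.8% at 2dpc, 24.2% at 3dpc and 27.2% at 4dpc. An unadjusted p under 0.05 was reached by 0, 2 and 0 of the 32 members at SSRP1KO 1dpc, 2dpc and 4dpc, where 2995, 4346 and 4097 of all 16621 genes reached it. At NT 1dpc, 2dpc, 3dpc and 4dpc it was reached by 1, 5, 0 and 1 members and by 2194, 5115, 5608 and 6155 of all genes. DESeq2 called Gngt2 lower at SSRP1KO 2dpc, Gnb1 lower at NT 2dpc and Rom1 lower at NT 4dpc, and no member in the other 4. It called 2549, 3694 and 4969 of all genes in these 3 comparisons. Gnb1 was nearest to the threshold at NT 2dpc (log2 fold change -0.42 ± 0.15, adjusted p = 0.0506). A p that misses the threshold does not show that the levels were equal: the median SE of a member was 0.62 to 0.63 on the log2 scale.

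**Figure D5:**
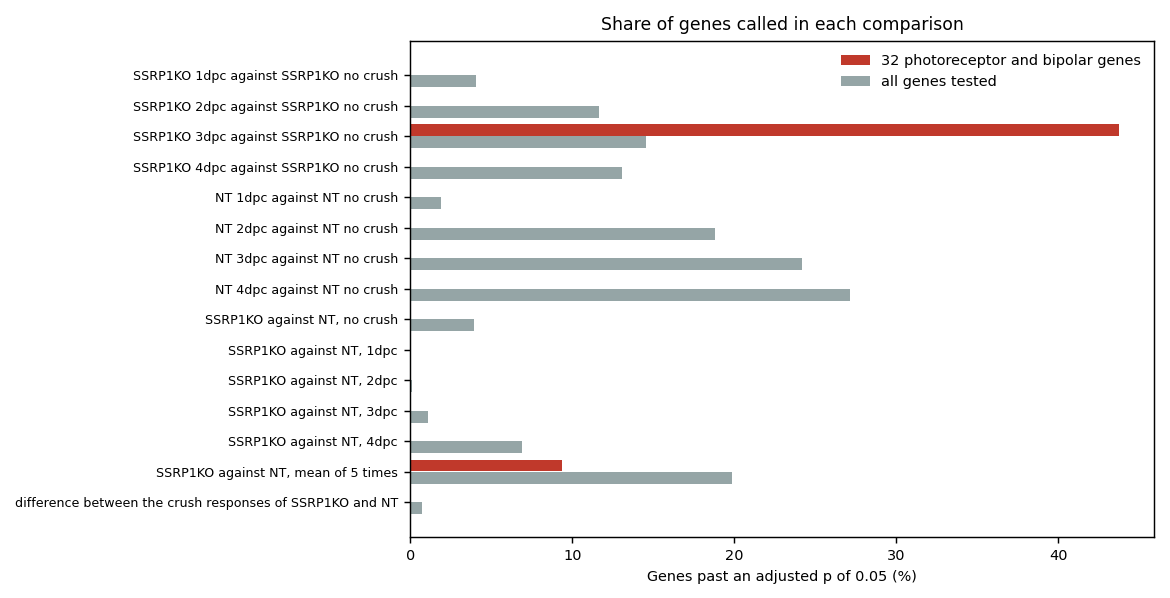
Percent of the 32 genes and of all genes tested that passed an adjusted p of 0.05, per comparison, with the members' bar above. Bars for the members appear only for SSRP1KO 3dpc against no crush (14 of 32) and for the mean SSRP1KO minus NT difference (3 of 32).

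SSRP1KO was set against NT at each time to ask what Ssrp1 targeting changed. None of the 32 genes was called without crush (3.91% of all genes called), at 1dpc (0.0180%), at 2dpc (0.0842%), at 3dpc (1.11%) or at 4dpc (6.91%). An unadjusted p under 0.05 was reached by 1 member without crush, 6 at 1dpc, 9 at 2dpc, 25 at 3dpc and 0 at 4dpc, and by 3435, 839, 2961, 2357 and 3347 of all 16621 genes at these times. DESeq2 called Nrl higher at 2dpc, where it called 639 of all genes, and Arr3, Cngb1, Gnat2, Opn1mw and Rom1 higher at 3dpc, where it called 568. DESeq2 was not run without SSRP1KO 3dpc replicate 2. At 3dpc the members' median log2 difference was 1.56, against 0.05 over all genes, and without SSRP1KO 3dpc replicate 2 it was 0.04, with 0 members at an unadjusted p under 0.05 against 1682 of 17004 genes. At 1dpc the members' median was -0.55, against -0.01 over all genes, with a median of -1.09 for the rod genes and 0.96 for the cone genes. The summed cone level at 1dpc was 14.6, 16.3 and 62.5 CPM in SSRP1KO libraries, against 24.3, 18.6 and 23.3 CPM in NT libraries. SSRP1KO 1dpc replicate 3 thus lay above all NT 1dpc libraries, and replicates 1 and 2 lay below them. The members' median at 1dpc was -1.17 without SSRP1KO 1dpc replicate 3, -0.36 without replicate 1 and -0.33 without replicate 2. At 2dpc it was 0.90, against 0.00 over all genes, and 0.63 without SSRP1KO 2dpc replicate 5. The crush responses of SSRP1KO and NT were compared with an F-test of 4 differences. It called no member (0.728% of all genes called), with Pde6g nearest at an adjusted p of 0.153, and DESeq2 called none either. An unadjusted p under 0.05 was reached by 13 members and by 2241 of all 16621 genes.

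Averaged over the 5 times, 3 of the 32 genes, Prkca, Trpm1 and Nrl, were called higher in SSRP1KO than in NT. This share was close to that of all genes, of which 9.64% were called higher and 19.8% in either direction. The log2 difference was positive for 31 of the 32 genes. Prkca averaged 140 ± 19.5 CPM in SSRP1KO libraries and 117 ± 19.2 CPM in NT libraries (SD, n = 15 each; log2 difference 0.26 ± 0.08, adjusted p = 0.0179). Trpm1 averaged 11.8 ± 21.6 CPM in SSRP1KO libraries and 4.23 ± 1.57 CPM in NT libraries (1.12 ± 0.36, adjusted p = 0.0261), and its medians were 5.25 and 4.2 CPM. Nrl averaged 17.7 ± 14.6 CPM in SSRP1KO libraries and 9.95 ± 6.04 CPM in NT libraries (0.79 ± 0.25, adjusted p = 0.0277). Without SSRP1KO 3dpc replicate 2 only Prkca was called (0.22 ± 0.08, adjusted p = 0.0397), with Nrl at 0.60 ± 0.24 (0.077) and Trpm1 at 0.61 ± 0.28 (0.14). In that fit 3000 of 17004 genes were called (17.6%). Trpm1 also missed the threshold without SSRP1KO 1dpc replicate 3 (0.102) or SSRP1KO 2dpc replicate 5 (0.0575), and Nrl without SSRP1KO 2dpc replicate 5 (0.0571) or SSRP1KO no crush replicate 2 (0.0557). Ganglion cell markers summed to 6464 to 7424 CPM in SSRP1KO no crush, against 9253 to 10487 CPM in NT no crush. They summed to 4299 to 4679 CPM at SSRP1KO 4dpc, against 5956 to 9478 CPM at NT 4dpc. Their part in these differences was not tested.

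A list of 40 other photoreceptor genes was set beside the members. At SSRP1KO 3dpc against no crush, 19 of 40 were called higher and none lower, against 1458 higher and 956 lower of all 16621 genes. Without replicate 2 none of the 40 was called, against 2036 of 17004 genes. Among the called genes of this list with the smallest adjusted p was Impg2, a matrix protein between photoreceptors. Impg2 stood at 17.2, 135 and 15 CPM at SSRP1KO 3dpc, against 9.62, 8.68 and 10.2 CPM in SSRP1KO no crush (log2 fold change 2.55 ± 0.54, adjusted p = 0.00122), and at 0.76 ± 0.36 (0.182) without replicate 2.

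Of 19 other bipolar genes tested, 5 were called higher and 3 lower at SSRP1KO 3dpc against no crush, and 1 and 3 without replicate 2. Of all 16621 genes, 1458 were called higher and 956 lower. Without replicate 2 it was 1235 higher and 801 lower of 17004 genes. The bipolar list genes called lower were led by the homeobox genes Irx6 and Irx5, a family that ganglion cells also express. Irx6 stood at 8.15, 7.54 and 9.31 CPM at SSRP1KO 3dpc, against 40.2, 26.2 and 36.5 CPM in SSRP1KO no crush (log2 fold change -2.04 ± 0.30, adjusted p = 1.66e-05). Irx5 stood at 11.2, 11.8 and 11.1 CPM, against 19.8, 15.1 and 27.6 CPM (-0.88 ± 0.22, adjusted p = 0.00535). Both were called lower without replicate 2 as well, and their values did not overlap between the groups. In NT cells Irx6 was lower at 2dpc, 3dpc and 4dpc (-1.94 ± 0.30, -3.07 ± 0.32 and -3.01 ± 0.32, with adjusted p-values of 2.26e-05, 1.35e-08 and 1.79e-08). For the mean SSRP1KO minus NT difference, where 1602 of all 16621 genes were called higher and 1694 lower, 3 other photoreceptor genes were called higher and 1 lower, and 7 other bipolar genes higher and 2 lower. Without SSRP1KO 3dpc replicate 2 these counts were 1 higher and 1 lower for the photoreceptor list and 5 higher and 2 lower for the bipolar list, against 1453 higher and 1547 lower of 17004 genes. The higher ones included Car8 (0.75 ± 0.19, adjusted p = 0.00547), and the lower ones were led by Slc24a2 (-0.33 ± 0.06, 0.000487) and Slc24a3 (-0.39 ± 0.08, 0.00133). These 3 were called without SSRP1KO 3dpc replicate 2 too (Car8 0.62 ± 0.18, adjusted p = 0.0137). Slc24a2 and Slc24a3 stood at 568 and 239 CPM in that library, and had medians of 675 and 252 CPM over the other 29.

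Genes were ranked by how closely their log2(CPM + 1) followed that of the rod sum over the 30 libraries, among 13708 genes with a mean of at least 1 CPM. The closest that are named here were Rbp3 (Pearson r 0.949, Spearman rho 0.875), Grk1 (0.943 and 0.885), Guca1b (0.943 and 0.872), Rp1l1 (0.939 and 0.888), Rpgrip1 (0.938 and 0.915), Slc24a1 (0.936 and 0.875), Ppef2 (0.926 and 0.908) and Pdc (0.922 and 0.919). Of the 50 highest, 24 were in the lists of other photoreceptor or bipolar genes, of which 52 were ranked, and without SSRP1KO 3dpc replicate 2 the number was 23. The libraries share sgRNA, time and depth, so these values describe likeness only. The 8 rod genes are part of the sum, so their own r is not given. Of the members outside the sum, Prph2 had an r of 0.97 with SSRP1KO 3dpc replicate 2 and 0.94 without it, and Crx 0.95 and 0.91. Rcvrn had 0.76 and 0.59, and Rom1 0.64 and 0.38. Of the cone genes, Opn1mw had an r of 0.67 with that library and 0.35 without it, and Arr3 0.65 and 0.32. Without it, cone genes ran from -0.15 for Pde6h and Cngb3 to 0.51 for Opn1sw. Bipolar genes then ran from 0.06 for Gng13 to 0.48 for Trpm1. Gnb1 had 0.17 and 0.12, and Prkca 0.35 and 0.07.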

How the data were processed

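RNA of sorted mouse retinal ganglion cells was measured in 30 libraries. Per the labels and the table itself, the authors deposited 1 table of raw counts, whole numbers by gene symbol. A second deposited table, on LINE repeats, was not used here. The submitters' processing notes name GRCm38 (mm10), bcl2fastq 2.17, STAR and HTSeq, without the role of each, and strand setting and gene annotation were not stated. Of 24060 symbols, 27 that had become dates were dropped. The test was edgeR's quasi-likelihood test (version 4.0.16, R 4.3.3) after TMM scaling and filterByExpr, which kept 16621 genes, with all 10 groups in a single fit that left 20 residual degrees of freedom. Tests were two-sided with a Benjamini-Hochberg threshold of 0.05. DESeq2 1.42.0, RLE scaling, no filter, a replicate block, fits of only the groups compared, and each library left out in turn were alternatives. Tables were handled with pandas 2.3.3 and numpy 2.4.6, and figures drawn with matplotlib 3.10.9. The edgeR fit was tested on simulated counts, read for NT 4dpc against NT no crush only.

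CPM are counts scaled by the TMM-adjusted library size. Gene positions and overlaps were read from GENCODE M21 (GRCm38), and promoters from RefSeq (GRCm38.p6). All member genes were named. From the other photoreceptor and bipolar lists, the 2 called genes each way with the smallest adjusted p were named where a member was called, and 10 genes were taken by likeness. Some genes chosen by these rules are not reported here. The members and lists were chosen with earlier results of these data known, so no list here is independent evidence.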

Additional observations from a re-analysis of the deposited data

How the results depend on the processing

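The 14 calls at SSRP1KO 3dpc rest on replicate 2. Leaving out 1 library at a time gave 0 to 20 member calls for SSRP1KO 3dpc against no crush, 0 to 3 at NT 2dpc, 0 to 2 at NT 3dpc, 0 to 1 at NT 4dpc, 0 to 1 for SSRP1KO minus NT at 2dpc, 0 to 2 at 3dpc, and 1 to 7 for the mean of 5 times. For SSRP1KO 3dpc against no crush, DESeq2 called 13 members, RLE 11, no filter 16, only the groups compared 0, and the replicate block 10. Of all 16621 genes, DESeq2 called 2853, RLE 2365 and the replicate block 2747. No filter called 2225 of 20762 genes, and only the groups compared 1191 of 15108. With the replicate block the mean of 5 times had 0 calls, where Prkca stood at an adjusted p of 0.0693, and NT 2dpc had 1. Of all 16621 genes, the block called 2280 for the mean of 5 times and 3491 at NT 2dpc. The block was only an alternative, since replicate numbers did not pair the libraries: of 117 same-number pairs, 11 had a correlation over 0.1 (median -0.01), and 3 of 30 libraries were most like a library with their own number. DESeq2 called 1 member at NT 2dpc, NT 4dpc, SSRP1KO 2dpc and SSRP1KO minus NT at 2dpc, and 5 for SSRP1KO minus NT at 3dpc. Of all 16621 genes it called 3694, 4969, 2549, 639 and 568 in these comparisons. RLE called 1 at NT 2dpc, where it called 3145 of all 16621 genes. Fitting only the groups compared called 1 at NT 3dpc, where this setting called 5239 of 14414 genes. It called 4 for SSRP1KO minus NT at 1dpc (Gnat1, Pde6g and Rp1 lower, Prkca higher). There this setting called 352 of 14831 genes, against 3 of 16621 with all libraries fitted. 2 settings were added after seeing the data. Without SSRP1KO 3dpc replicate 2 in all comparisons, 2 members were called at NT 2dpc and 1 at NT 4dpc and SSRP1KO 2dpc. Of all 17004 genes then tested, 3114, 4516 and 1900 were called. Without that library and the 3 that resembled their groups least, 1 member was called at NT 1dpc, NT 3dpc and NT 4dpc, 0 at SSRP1KO 3dpc, and 1 for the mean of 5 times. Of all 16824 genes then tested, 1087, 5435, 6023, 2797 and 3944 were called in these comparisons. In that last setting 5 of the 14 genes turned direction at SSRP1KO 3dpc, at log2 fold changes of -0.08 for Arr3 and Cnga1, -0.04 for Opn1mw, -0.03 for Pde6a and -0.47 for Pde6c, and Pde6c was at -0.26 without replicate 2 alone (its range over libraries left out was -0.26 to 3.35). The cause of each shift was not tested. Low cone and bipolar counts limit precision, and Cnga3 had no count in 19 libraries.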
